A study of Homo sapiens with 23 samples.

Results

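The mucin genes MUC6, MUC2, MUC5AC, MUC5B and MUC4 were followed through every peak list of a study of replication start sites and chromatin binding in 2 established human cell lines. Their members are the peaks that overlap 5 stretches of hg19: chr11:1012000-1037000 for MUC6, chr11:1074000-1105000 for MUC2, chr11:1151000-1223000 for MUC5AC, chr11:1244000-1284000 for MUC5B and chr3:195473000-195539000 for MUC4. These spans cover 234 kb and hold 347 of the 1741457 peaks in 21 lists: 47 at MUC6, 68 at MUC2, 55 at MUC5AC, 73 at MUC5B and 104 at MUC4. The genes were chosen by measured values, the high pSIRT1 and pMCM2 signal at MUC6 and MUC2, so their ranks in these lists are a description and no test was made of them.

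Mucins are large glycoproteins that coat wet epithelia. MUC2, MUC5AC, MUC5B and MUC6 are secreted, link into polymers and form the mucus gel, and their genes lie side by side on the short arm of chromosome 11. MUC2 is the main mucin of intestinal mucus, MUC5AC and MUC6 are gastric mucins, and MUC5B is a mucin of the airways. MUC4 is a membrane-bound mucin encoded near the end of the long arm of chromosome 3. All 5 proteins have a central region of tandem repeats rich in proline, threonine and serine, which carries the O-linked sugars, so that long stretches of the coding sequence repeat a short unit.

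HCT116 is a colon carcinoma line, the tissue in which MUC2 is the main mucin, and K562 is a chronic myelogenous leukaemia line. Nascent strands, which are short newly made DNA that survives an exonuclease and marks replication start sites, were sequenced from 4 HCT116 cultures: a clone depleted of SIRT1, a depleted clone rescued with wild-type SIRT1 (wild-type rescue), a depleted clone rescued with the T530A mutant of SIRT1 (T530A rescue), and wild-type cells given 200 nM aphidicolin for 24 h and then grown in fresh medium for another 24 h. Each genotype is thus 1 clone, and nascent strands of untreated wild-type HCT116 cells were not analysed here. ChIP-seq of wild-type HCT116 cells mapped T530-phosphorylated SIRT1 (pSIRT1), S139-phosphorylated MCM2 (pMCM2) and the H4K16ac mark, which is acetylation of histone H4. Wild-type K562 cells, labelled as separated into cell cycle fractions (by elutriation, for ChIP-seq), gave nascent strands of early, middle and late S, and pSIRT1 and pMCM2 of those S fractions and of G1 and G2. The extraction protocol, which is the same text for all samples, speaks of asynchronous cultures, and the fractions are given here as the sample labels name them. One further K562 pSIRT1 library came from cells with no fraction named. SIRT1 is a NAD-dependent deacetylase, H4K16ac is one of its substrates, and MCM2 is a subunit of the helicase that unwinds DNA at replication origins.

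Each group is 1 library, so there is no replicate error, and every comparison is between libraries and not between conditions. The reads listed in peaks ranged from 578108 in the K562 G1 pMCM2 list to 20014274 in the depleted list, and total library depth is unknown. Values were read counts in 18 lists and scores in 3 lists: HCT116 H4K16ac and, for K562 pSIRT1, middle S and G2. RPM stands for reads in a span per 1000000 reads in the peaks of the same list. A peak is called a top 1% peak when its value ranks in the highest 1% of its own list. Intervals are exact Clopper-Pearson 95% intervals of the share of a list's reads, and they cover counting error only.

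In the RefSeq annotation of GRCh38.p14 the gene order on chromosome 11 was AP2A2, MUC6, MUC2, MUC5AC, MUC5B and TOLLIP, leaving aside an uncharacterised locus between MUC6 and MUC2, and MUC4 followed MUC20 on chromosome 3. Upstream sequences were found there for 2 of the 5 genes, MUC2 and MUC4. They are shown, with the upstream sequence of the antisense gene MUC5B-AS1, because the latter window lies inside the MUC5B gene of that build and is itself repetitive. Whether it lies in an exon or in the tandem repeats was not tested. Each is the 250 bases before the gene's start, 5′ to 3′ on the gene's own strand. Capitals mark in MUC2 a G-quadruplex motif match on the other strand and TATAA, in MUC4 CCGCCC, which is GGGCGG on the other strand, and in MUC5B-AS1 the most frequent 6-base word, GGTGGC.
MUC2: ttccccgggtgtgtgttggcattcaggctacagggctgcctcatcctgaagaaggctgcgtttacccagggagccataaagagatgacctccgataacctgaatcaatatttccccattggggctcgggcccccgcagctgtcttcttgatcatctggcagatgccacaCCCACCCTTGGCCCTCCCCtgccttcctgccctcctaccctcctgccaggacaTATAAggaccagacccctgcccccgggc
MUC4: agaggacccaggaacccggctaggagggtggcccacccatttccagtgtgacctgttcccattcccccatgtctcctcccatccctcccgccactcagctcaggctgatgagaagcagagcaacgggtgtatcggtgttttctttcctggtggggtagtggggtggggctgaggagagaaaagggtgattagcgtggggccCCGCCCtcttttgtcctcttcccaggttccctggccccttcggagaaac
MUC5B-AS1: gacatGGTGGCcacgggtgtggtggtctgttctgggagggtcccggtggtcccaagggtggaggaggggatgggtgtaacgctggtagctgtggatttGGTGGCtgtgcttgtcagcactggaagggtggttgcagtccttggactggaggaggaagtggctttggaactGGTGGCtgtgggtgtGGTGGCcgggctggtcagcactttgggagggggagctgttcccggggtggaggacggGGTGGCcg

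The word GGTGGC occurs 5 times in the MUC5B-AS1 window. Of the 6-base words in that window, 42.0% belong to a word that occurs more than once, against a median of 13.5% over 35116 RefSeq promoter windows of the same length, and 2.75% of those windows are as repetitive. The MUC5B-AS1 window was shown in part because it is repetitive, so its place among the windows is a description. The MUC2 and MUC4 windows lie near the median, at 15.1% and 15.5%. Searched on both strands, TATAA occurs in 18.9% of the windows, GGGCGG in 42.6% and the G-quadruplex motif in 23.5%. These matches describe letters only, and the windows were not placed on hg19, so no peak is assigned to them.

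Across the lists, 4 of the 5 genes held peaks from the extreme upper end of the distribution, and MUC5AC did not. A top 1% peak lay at MUC2 in 15 of the 21 lists, at MUC5B in 14, at MUC6 in 13 and at MUC4 in 13, and at MUC5AC in 0. The median rank of each gene's strongest peak, over the lists with a peak, was in the top 0.102% at MUC2, 0.265% at MUC6, 0.383% at MUC4, 0.392% at MUC5B and 4.04% at MUC5AC. Among all 50 kb tiles of the genome with any peak, 0.235% held a top 1% peak in at least 11 of the 21 lists, and MUC6, MUC2, MUC5B and MUC4 did. The spans are 25 to 72 kb long and were chosen for high signal, so nothing further is read from that count.

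The rank depends on how a peak is scored, and the genes divide on it. With peaks ranked by value per kb of peak, the lists with a top 1% peak numbered 10 at MUC2, 7 at MUC6, 4 at MUC5AC, 3 at MUC4 and 0 at MUC5B. By width alone, they numbered 16 at MUC5B, 15 at MUC4, 10 at MUC6, 8 at MUC2 and 0 at MUC5AC. MUC5B and MUC4 thus stood out by the breadth and total of their regions and rarely by density, whereas MUC2 and MUC6 reached the top 1% by each of the 3 measures in 7 or more lists. The median width of the strongest peak was 13600 bp at MUC5B, 12000 bp at MUC4, 8900 bp at MUC6, 6400 bp at MUC2 and 1800 bp at MUC5AC.

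**Figure D1:**
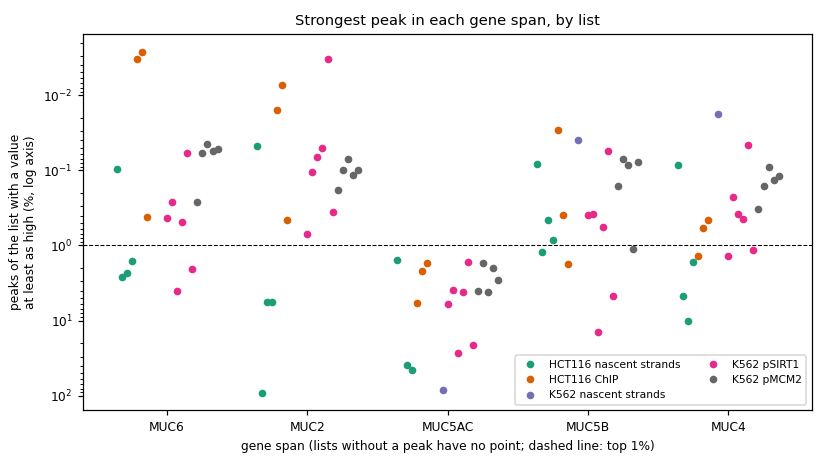
Rank of the strongest peak of each mucin gene within each list, as the top percent of the list's peaks by value on an inverted log axis, with 1 point per list. MUC5AC has no point in the top 1%, and MUC2 has all 14 ChIP lists in it.

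In HCT116 pSIRT1, MUC6 carried 1 of the strongest peaks of the genome. Its peak at chr11:1010201-1027999 was 17799 bp wide, held 2497 reads and ranked 4 of 121730. At MUC2, the gel mucin of the colon, the peak at chr11:1086201-1099599 held 1535 reads and ranked 19. MUC5B followed closely, with 1325 reads at chr11:1261001-1275999 and rank 36. MUC4 and MUC5AC stood far lower: MUC4 had 393 reads at chr3:195534801-195546399 and rank 1680, and MUC5AC had 210 reads at chr11:1212801-1213599 and rank 6986. That MUC4 peak runs past the end of the span at 195539000. The strongest MUC4 peak wholly inside the span, chr3:195485001-195492399, held 363 reads and ranked 2041. The MUC5AC peak was only 799 bp wide, and by reads per kb, 262.8, it ranked 25, above the MUC6 peak at 140.3 reads per kb and rank 272.

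In HCT116 pMCM2 the same order began with MUC6 and MUC2 but dropped sharply after them. The MUC6 peak at chr11:1014401-1019600 held 15851 reads in 5200 bp and ranked 4 of 151777. The MUC2 peak at chr11:1089601-1094000 held 10093 reads in 4400 bp and ranked 11. MUC5B had 1277 reads and rank 598, MUC4 had 1024 reads and rank 886, and MUC5AC had 475 reads and rank 3321. By width, however, MUC5B ranked 45 and MUC4 ranked 90, ahead of MUC6 at 1348. The MUC6 and MUC2 peaks were narrower than those of MUC5B and MUC4, though wide for a list with a median width of 1000 bp. They held 3048 and 2294 reads per kb, against 110.1 at MUC5B and 104.5 at MUC4.

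The H4K16ac list of HCT116 had regions that ranked higher by width than by score at MUC6, MUC2 and MUC5B. MUC6 lay within 1 region, chr11:983059-1044031, of 60973 bp, which ranked 20 of 230760 by width and 970 by score (547). The MUC2 region, chr11:1072390-1108593, was 36204 bp wide (rank 145) and had a score of 518 (rank 1061), and it covered the whole span. At MUC5B a region of 42078 bp, chr11:1239059-1281136, ranked 87 by width and 4019 by score (244). MUC4 was split into 12 regions, the strongest being 2423 bp with a score of 521. MUC5AC had 2 regions, and the stronger, 9293 bp wide, had a score of 247.

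**Figure D2:**
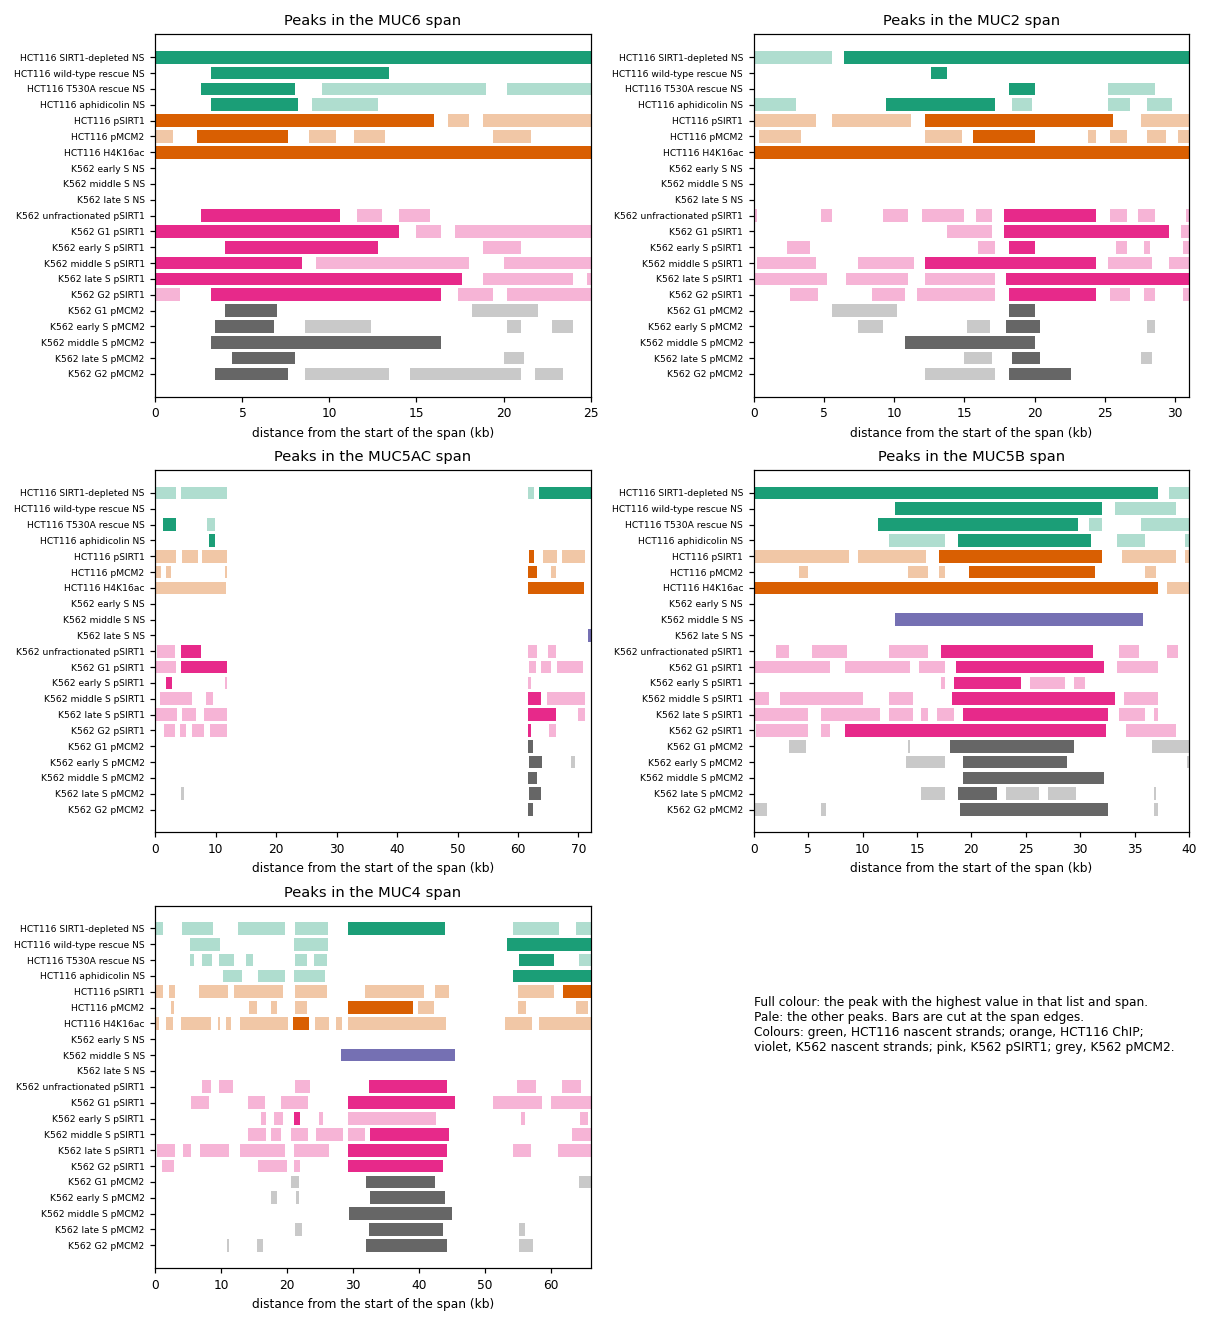
Peaks of the 21 lists along each of the 5 mucin spans, with position in kb from the span's start on the x axis and 1 row per list, each peak drawn as a bar to scale. All 14 ChIP lists have a peak over 1 common stretch in MUC6, MUC2 and MUC5AC, and MUC5AC is empty over 49800 bp. Other places are also covered by many of these lists, such as 13 of them at 16 kb in MUC2.

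Peaks fell at the same place in both cell lines. A stretch of each gene was covered by a peak in all 14 ChIP lists: chr11:1016401-1018800 in MUC6, chr11:1092401-1094000 in MUC2, chr11:1212801-1213200 in MUC5AC, 4 stretches between positions 1263801 and 1272600 in MUC5B, and 2 stretches between 195505601 and 195513800 in MUC4. Among all 50 kb tiles with any peak, 1.55% held a 200 bp bin covered in all 14 ChIP lists. The genes were chosen for pSIRT1 and pMCM2 signal, and all of these lists but H4K16ac map pSIRT1 or pMCM2. Nothing further is therefore read from that share. The MUC6, MUC2 and first MUC5B stretches lay under the gene's strongest peak in all 14 of these lists, and the MUC5AC and longer MUC4 stretches in 11 of them. They are 2400 bp long in MUC6, 1600 bp in MUC2, 400 bp in MUC5AC and 6400 bp for the longer stretch of MUC4. Whether they coincide with exons or with the tandem repeats was not tested, because an hg19 annotation was not used here.

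The MUC5AC span of hg19 differed from the other spans by a long stretch without a peak. No list had a peak in the 49800 bp of chr11:1162801-1212600. Its peaks lay left of that gap or right of it, and 7 lists had a peak that ended at the gap's left edge and 10 a peak that began at its right edge. The shared peak at the right edge held 43 to 550 reads in the 4 count lists of K562 pSIRT1 and 62 to 179 reads in the 5 of K562 pMCM2. Whether hg19 holds sequence in that interval, and whether reads can be placed there at all, was not tested. The stretch is therefore not read as a trait of the gene.

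The high counts were mostly local in the ChIP lists for the 4 high genes. Because the genes were chosen for pSIRT1 and pMCM2 signal, which all ChIP lists with counts map, this is a description. The same comparison was not made for other spans of the genome. Read density over a span was compared with the gaps between the chromosome 11 genes and with 100 kb beyond the outer ones and beside MUC4, in the 18 count lists. In the 11 ChIP lists with counts, the span was denser than both neighbouring stretches in 11 lists at MUC6, 11 at MUC2, 11 at MUC5B, 10 at MUC4 and 4 at MUC5AC. The median ratio of span to neighbours was 16.4 at MUC6, 15.9 at MUC2 (10 lists, since 1 had no neighbouring reads), 7.43 at MUC5B, 3.98 at MUC4 and 0.633 at MUC5AC over the 8 lists with a ratio. At MUC5AC the K562 pMCM2 lists of early, middle and late S held 1.35, 1.49 and 1.32 reads per kb, against 0 in the stretches beside it. With these 3 lists ranked highest, the MUC5AC median over 11 lists was 1.07, so its place above or below its neighbours rests on how they are counted. It also rests on the length used. MUC5AC density was taken over the whole 72 kb span, and the 49800 bp without a peak in any list lower its ratios. Density over the rest of that span was not computed. In HCT116 pMCM2, MUC6 held 659 reads per kb against 15.7 beside it, a ratio of 41.9, and MUC2 had a ratio of 24.5. In HCT116 pSIRT1 these ratios were 6.99 at MUC6 and 3.56 at MUC2.

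**Figure D3:**
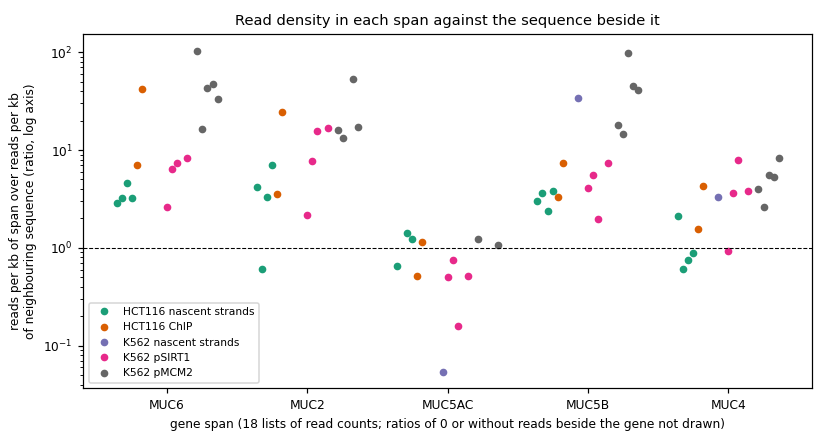
Reads per kb of each mucin span divided by reads per kb of the neighbouring stretches, on a log axis, with 1 point per count list. MUC6, MUC2 and MUC5B lie above 1 in all ChIP lists that give a ratio, and the ratios drawn for MUC5AC reach 1.43. The 3 K562 S phase pMCM2 lists, with 0 reads beside MUC5AC, have no ratio and no point there. MUC5AC ratios are lowered by the 49800 bp of its span without a peak in any list.

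The share of a list's reads that fell in the 5 spans had a median of 0.115% over the 18 count lists and was highest in K562 early S pSIRT1, at 0.310% (95% interval 0.305 to 0.315). In HCT116 it was 0.220% (0.218 to 0.223) in pMCM2 and 0.0937% (0.0918 to 0.0957) in pSIRT1. The 27 HCT116 pSIRT1 peaks at the spans were also checked for overlap with the other HCT116 lists. Of them, 19 overlapped a pMCM2 peak, 70.4% against 53.1% of all pSIRT1 peaks. All 27 overlapped H4K16ac, against 86.4%. The spans were selected on pSIRT1 and pMCM2 signal and wider peaks overlap more often, so these overlap shares are a description.

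Of the 4 HCT116 nascent-strand lists, that of the SIRT1-depleted clone had the most reads in the strongest peak of each gene. Per kb of that peak it was highest at MUC5B and MUC4 only. At MUC6 it had 100.9 reads per kb, against 103.1 in T530A rescue and 111.2 after aphidicolin. At MUC2 it had 179.4 against 206.7 in T530A rescue, and at MUC5AC 60.1 against 107 after aphidicolin. In the depleted list the strongest peak at MUC6 had 3249 reads over 32200 bp (rank 106 of 109990), at MUC2 4592 reads over 25600 bp (rank 53), at MUC5B 3502 reads over 41600 bp (rank 92), at MUC4 3463 reads over 14800 bp (rank 93) and at MUC5AC 962 reads (rank 1700). The wild-type rescue clone had 681 reads at MUC6 (rank 1931 of 74479), 947 at MUC5B (rank 898) and 531 at MUC4 (rank 3483). At MUC2 it had a single peak of 73 reads at chr11:1086601-1087800, rank 68073, and at MUC5AC it had no peak. The T530A rescue clone had 557 reads at MUC6, 372 at MUC2, 123 at MUC5AC, 1113 at MUC5B (rank 474 of 103974) and 279 at MUC4. After aphidicolin, wild-type cells had 556 reads at MUC6, 329 at MUC2, 107 at MUC5AC, 724 at MUC5B (rank 820 of 96993) and 547 at MUC4.

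As a share of each list, the 4 libraries were spread widely at MUC2. The depleted list had 246 RPM in the MUC2 span (95% interval 239 to 253), the aphidicolin list 65.8 (61.6 to 70.3), the T530A rescue list 36.3 (33.4 to 39.5) and the wild-type rescue list 4.88 (3.82 to 6.13). None of these intervals overlap, but they cover counting error only, so libraries are compared here and not conditions. How often such intervals part elsewhere in the genome was not computed. At MUC5B the 4 lists stood nearer to each other, at 162 RPM in the depleted list, 86.0 in T530A rescue, 78.9 after aphidicolin and 76.5 in wild-type rescue. At MUC6 they gave 126, 78.0, 53.3 and 45.5 in the same order of libraries, and at MUC4 269, 59.1, 77.7 and 61.5. MUC5AC gave 80.1 RPM in the depleted list, 15.3 in T530A rescue and 7.81 after aphidicolin, and wild-type rescue had no peak there.

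Summed over the spans, the share was 0.0882% in the depleted list, 0.0284% after aphidicolin, 0.0275% in T530A rescue and 0.0188% in wild-type rescue. The depleted list held 20014274 reads in peaks, against 13701955 to 15545568 in the other 3 lists. In reads per kb, which are not scaled for that, it was also denser beside the genes. Next to MUC6 it held 35.5 reads per kb against 8.39 to 10.6 in the other 3 lists, and next to MUC2 38.3 against 3.92 to 5.56. Relative to those neighbours, MUC6 was 2.84 times as dense in the depleted list and 3.22 to 4.59 times in the others. At MUC2 the ratio was 4.15 in the depleted list, 7.04 after aphidicolin, 3.28 in T530A rescue and 0.601 in wild-type rescue, the only 1 of the 4 below 1. MUC4 differed from MUC6: its span was 2.12 times as dense as its neighbours in the depleted list, and 0.613 in wild-type rescue, 0.750 in T530A rescue and 0.879 after aphidicolin. The higher density of the depleted list was thus present beside the genes too, and its part in the values at the genes was not tested.

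A top 1% peak in the depleted list and in none of the other 3 HCT116 nascent-strand lists was found at MUC6, MUC2 and MUC4, and in 1.12% of all tiles. MUC5B missed it because T530A rescue and aphidicolin also had top 1% peaks there. The spans were chosen for high signal, so nothing further is read from that share of tiles. Of the 27 pSIRT1 peaks of wild-type HCT116 at the spans, 26 overlapped a peak of the depleted list (67.8% of all pSIRT1 peaks), 17 of T530A rescue (53.6%), 15 of aphidicolin (47.9%) and 9 of wild-type rescue (48.7%). The shares of the mucin peaks were 96.3%, 63.0%, 55.6% and 33.3% in that order. For T530A rescue and aphidicolin they were near the shares of all pSIRT1 peaks, and for wild-type rescue below. The spans were selected on pSIRT1 signal and wider peaks overlap more often, so these shares are a description.

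Within the genes, the nascent-strand peaks did not always meet the stretch shared by the ChIP lists. At MUC6 and MUC5B that stretch was covered by a nascent-strand peak in all 4 HCT116 lists, and at MUC2 in 3, all but wild-type rescue. In T530A rescue the MUC2 peak at chr11:1092201-1094000 had 207 reads per kb and ranked 25 of 103974 by density, although it ranked 5837 by total reads. At MUC4 and MUC5AC only the depleted list covered the stretch. In wild-type rescue, T530A rescue and aphidicolin, MUC4 had peaks on both sides of the stretch and none on it. The strongest of each lay past it, at chr3:195526401-195539800, chr3:195528201-195533400 and chr3:195527201-195539800.

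In K562 cells, the nascent-strand lists had few peaks at these genes, and the ChIP lists had peaks at all 5. The early S nascent-strand list had no peak at any of the 5 spans, and the late S list had 1, a peak of 42 reads at the far edge of MUC5AC. Middle S had 2, both among the strongest of the list: 1978 reads at MUC5B, chr11:1257001-1279800, rank 27 of 67803, and 2828 reads at MUC4, chr3:195501201-195518400, rank 12. A peak in middle S and none in early or late S occurred in 3.91% of tiles. MUC6 and MUC2 had no K562 nascent-strand peak in any fraction although each had top 1% peaks in the K562 ChIP lists, a combination found in 1.03% of tiles. Both genes were chosen for high pSIRT1 and pMCM2 signal, so nothing further is read from that share.

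By the strongest peak of each gene, K562 pSIRT1 was led by MUC2 in 5 of the 6 libraries. Its strongest peak held 13777 reads in late S at chr11:1092001-1105400 and ranked 4 of 120213. In early S it was a narrow peak of 8089 reads in 1800 bp at chr11:1092201-1094000, rank 24 of 36314. The G1 peak had 1397 reads (rank 79 of 75682), and the library with no fraction named had 262 reads (rank 681 of 96010), behind MUC5B with 415 reads (rank 376) and MUC6 with 387 (rank 415). By score, MUC2 ranked 13 of 25542 in middle S and 166 of 45881 in G2.

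As a share of each list, pSIRT1 at MUC2 was 468 RPM in G1 (444 to 493), 1729 in early S (1693 to 1766) and 1265 in late S (1244 to 1286). MUC4 stood above MUC2 in G1, at 494 RPM, and was also highest in early S, at 1077 RPM against 670 in late S. Most of that early S value came from another site of the gene, a peak of 3772 reads in 1000 bp at chr3:195494001-195495000, in the top 0.383% of the list. MUC6 and MUC5B were instead lowest in early S. MUC6 gave 267 RPM in G1, 210 in early S and 429 in late S, and MUC5B gave 261, 55.3 and 494. MUC5AC gave 106, 29.4 and 92.0. The early S list had the narrowest peaks of this antibody, with a median width of 400 bp over the whole list against 1800 bp in G1 and 1600 bp in late S, and the part of that in these shares was not tested.

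In K562 pMCM2 the MUC6 span had the highest RPM of the 5 genes in the 3 S phase lists and in G2, and MUC5B in G1. At MUC6 it was 427 RPM in G1 (376 to 484), and early S had 784 (726 to 845). It was highest at 1008 (956 to 1062) for middle S, followed by 760 (705 to 819) for late S and 466 (446 to 487) for G2. MUC2 ran from 490 in G1 through 577, 693 and 453 in early, middle and late S to 303 in G2. Both were highest in middle S, where their strongest peaks were also widest. At MUC6 that peak spanned 13200 bp, against 3000 to 4200 bp in the other fractions. At MUC2 it spanned 9200 bp, against 1800 to 4400 bp. The part of peak width in these shares was not tested. MUC5B gave 614, 644, 541, 343 and 297 in the order of the cycle, highest in G1 and early S. MUC4 gave 382, 319, 502, 423 and 254. MUC5AC stayed between 42.0 and 112. The strongest MUC6 peak ranked 16 of 35438 in middle S, with 1399 reads, and 26 of 43553 in early S, with 552 reads. Each fraction is 1 library of 578108 to 4260082 reads in peaks, so differences between fractions cannot be told apart from differences between libraries.

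**Figure D4:**
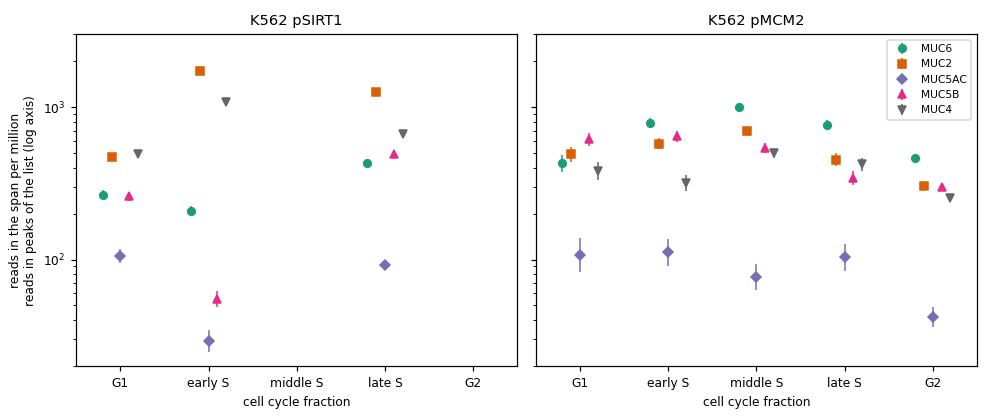
RPM at each mucin span, on a log axis, for K562 pSIRT1 (left) and pMCM2 (right) by cell cycle fraction, with exact 95% intervals of the counting error. For pSIRT1, middle S and G2 are without points because their values are scores. For pMCM2, MUC6 is highest in middle S at 1008 RPM.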

How the data were processed

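Nascent strands and ChIP-seq of pSIRT1, pMCM2 and H4K16ac were sequenced in HCT116 and K562 cells, with 1 library per group. Coordinates are on hg19, and peaks were called with MACS and SICER, per the submitters' processing notes, with sheared genomic DNA of each line as control, per the labels. Which aligner, versions, thresholds or filters were used is not given in the sources used here. Both sheared DNA libraries were left out and not analysed here, so the part of local copy number in a read count was not tested.

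Columns of the lists are unnamed, so their units were read from the values. The authors deposited a whole number per region in 18 lists, taken as a read count that is not scaled between libraries. For K562 pSIRT1 in middle S and G2 the deposited value is a decimal score. The H4K16ac list is laid out like MACS output. In it the authors deposited a score, the fold enrichment, and p and q values as −log10. Only its score was used. All are the authors' own values per peak.

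Chromosomes 1 to 22 and X were used, and no list held overlapping peaks. Peaks were ranked within their own list, since values of different lists share no scale. A peak belonged to a gene when it shared at least 1 bp with the gene's span, and the reads of a peak that crossed a span edge were split by length. RPM is computed per 1000000 reads in the peaks of the list. Intervals are exact Clopper-Pearson intervals at 95%. They cover counting error only, since PCR reads without molecular identifiers are not independent molecules. With no replicates, no test and no p-value was computed. The shares of all peaks, or of all 50 kb tiles with a peak in any list, stand as background. The ranking and overlap steps were tested on simulated data. Python 3.11.15, numpy 2.4.6, pandas 2.3.3, scipy 1.17.1 and matplotlib 3.10.9 were used.

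The 5 genes, their spans and the lists compared were chosen with earlier results of these data known. The named genes are those 5, with the strongest peak of each list. Other mucin and mucus genes and genes with long tandem repeats were to be added from an hg19 annotation, and were not analysed here. Alternatives ranked peaks by value per kb or among peaks of like width, kept the higher-valued 50% of each list, merged peaks within 1 kb, asked for the peak middle inside the span, and used the top 5%. Leaving out the 2 K562 pSIRT1 score lists was chosen after seeing the data.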

Additional observations from a re-analysis of the deposited data

How the results depend on the processing

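No paired analysis was possible because each group had 1 library. The number of the 21 lists with a top 1% peak moved by more than 1.5 times when peaks were ranked by value per kb of peak, to 7 from 13 at MUC6, to 4 from 0 at MUC5AC, to 0 from 14 at MUC5B and to 3 from 13 at MUC4, while MUC2 went from 15 to 10. Ranked among peaks of like width, MUC5AC had 6 such lists and MUC5B had 8. With the top 5% in place of the top 1%, MUC5AC had 11. The median share of reads in the 5 spans went from 0.115% to 0.120% with whole peaks counted at the span edges, and to 0.148% in the higher-valued 50% of each list. With ChIP lists that had no reads beside a gene ranked highest in place of left out, a setting chosen after seeing the data, the median ratio of span to neighbours went from 0.633 to 1.07 at MUC5AC and from 15.9 to 16.1 at MUC2. Each of the other settings left every count of lists within 1.5 times its value, leaving out the 2 K562 pSIRT1 score lists included. The overlap of HCT116 pSIRT1 with pMCM2 peaks stayed at 19 of 27 when 50% of the shorter peak had to be shared, and was 14 of 24 in the higher-valued 50% of both lists. Lists hold only called peaks, so a span without one may still hold reads below the authors' unstated threshold.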
